A study of Mus musculus with 6 samples.

Results

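Ion channel genes were followed in cultured granulosa cells (GCs), the hormone-producing somatic cells around each growing oocyte. The 97 genes were chosen by symbol, not by their values, from the 16300 genes of the table: those whose names start with Kcn, Cacn or Clcn, or with Scn, Trpc, Trpm, Trpv, Hcn, Asic or Piezo followed by a digit, with the antisense transcript Kcnq1ot1 and 1 potassium channel gene left out. By ion, 46 belong to potassium channels, 7 to sodium channels, 17 to calcium channels, 7 to the CLC chloride family and 20 to channels that pass several cations. The GCs were isolated from wild type C57BL/6J mice aged 8 to 9 weeks and cultured for 48 h in medium with 10% serum. They were then serum starved for 4 h and kept in serum-free medium as controls (3 libraries) or with 25 nM dihydrotestosterone (DHT) for 24 h (3 libraries). DHT is an androgen that aromatase cannot convert to estrogen, and each library pooled the GCs of 5 mice. One passage of the sample labels names whole ovary as the extracted material and DHT for every sample, while the treatment field separates control from DHT, and the groups follow that field.

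Ion channels are membrane proteins with a pore that lets particular ions pass down their gradient. Potassium channels pull the membrane potential towards negative values, whereas sodium, calcium and most TRP channels depolarise the cell, and calcium entry also acts as a signal inside it. Many channels combine a pore-forming subunit with accessory subunits that set gating or surface delivery. GCs are not classical excitable cells, but they are known to carry potassium and calcium currents, and calcium is an established second messenger in their response to gonadotropins.

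The 6 libraries held between 36111177 and 41928585 reads counted on genes. Levels are given as normalised read counts, the reads of a gene divided by a size factor that evens out the depth of the libraries. All 97 channel genes passed the filter of a mean of at least 10 normalised read counts, and all matched the GRCm38 annotation, 95 as protein-coding genes and 2 as antisense transcripts (Kcnab3os and Kcnmb4os2). The annotation holds 176 protein-coding genes under the same name rule, and those outside the 95 were not analysed here. Many members were low: 42 of the 97 had a mean under 50 normalised read counts, and together the 97 genes took 0.197% to 0.208% of the reads in control libraries and 0.213% to 0.226% in DHT libraries. Of 12 markers of GCs, 11 were measured, among them Foxl2 with 2494, 2588 and 2433 normalised read counts in control replicates 1, 2 and 3 and Fshr with 139.5, 143 and 168, while Cyp19a1 was not analysed here. Hsd17b1 and Cyp11a1 of this list rose, Inha and Foxl2 fell (Foxl2 at an adjusted p of 0.049, and called in 7 of 16 alternatives), and the summed level was 222255 to 234886 in control and 244706 to 255893 in DHT libraries. A cell type that supplies fewer cells and a cell type with less RNA per cell cannot be told apart in bulk libraries.

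DHT moved a minority of the channel genes, and more of them up than down. By limma, 17 of the 97 members passed an adjusted p of at most 0.05, 13 higher and 4 lower in DHT-treated GCs, where 11.2% of all 16292 genes tested passed in either direction (6.52% higher and 4.66% lower). The p-values were adjusted over all genes tested, a gene that passed is said to be called, and a log2 fold change is the DHT mean minus the control mean of log2(normalised read count + 1). Those that rose included Kcng2, Cacna1g, Kcnk3, Kcnd2, Clcn6, Kcnma1, Trpm4, Cacna2d1, Kcnk1, Kcnab3, Kcnc2 and Cacng4, and those that fell included Trpm5, Kcnab1 and Clcn5. With an absolute log2 fold change above 1 required as well, 3 members were higher (Kcng2, Cacna1g and Cacng4) and 1 was lower, against 1.31% of all genes in either direction (0.908% higher and 0.399% lower). The median log2 fold change was 0.11 over the 97 members and -0.01 over all genes tested, and 62 members (63.9%) had a positive value against 48.8% of all genes. In 34 members every DHT library lay on one side of every control library, 25 above (25.8%) and 9 below (9.28%), where 30.6% of all genes tested had groups without overlap, 15.9% above and 14.7% below. The count of members that rose dropped to 8 without DHT replicate 2, and the count that fell dropped to 2 without DHT replicate 2 and to 1 without DHT replicate 3. Calls over all genes fell from 1823 to 968 and 937 without these 2 libraries. Without the intensity trend in limma, 8 members were higher and 1 was lower.

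**Figure D1:**
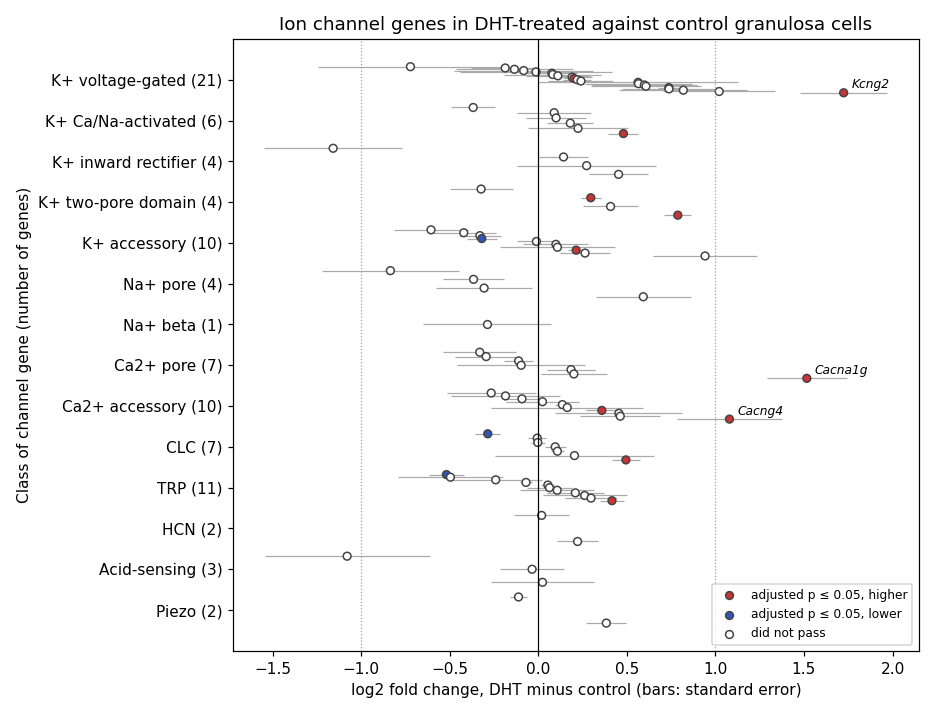
Log2 fold change of DHT-treated over control GCs for 92 of the 97 ion channel genes, by class, with the standard error as a bar. Red points passed an adjusted p of at most 0.05 as higher (12 genes plotted), blue points as lower (3 genes plotted), and the dotted lines mark log2 fold changes of -1 and 1, beyond which the 3 plotted genes that passed both thresholds are named.

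Markers of other ovarian cells were measured beside the channels. Over all genes tested, 6.52% rose and 4.66% fell. Of 8 smooth muscle and pericyte markers, 7 were measured and 4 rose (Acta2, Myh11, Cspg4 and Cnn1), and their summed level was 6809 to 10219 normalised read counts in control and 12356 to 14535 in DHT libraries. Acta2, smooth muscle actin, held most of that sum, with 4293, 6425 and 5479 normalised read counts in control replicates 1, 2 and 3 and 8217, 9086 and 9735 in DHT replicates 1, 2 and 3. Several channels studied here, such as Kcnma1 and Cacna2d1, are also known from smooth muscle, and the part of these markers in the channel results was not tested. Of the 10 neuron and glia markers, 8 were measured and 2 rose, Stmn2 among them, and the summed level was 508 to 589 in control and 679 to 715 in DHT libraries. The part of these genes was not tested either. The 5 endothelial markers measured (of 8) summed to between 226 and 308 normalised read counts in every library, and none passed. Of 6 immune markers measured of 10, Csf1r fell, and the sums were 278 to 298 in control and 212 to 286 in DHT. The 8 markers of ovarian surface epithelium summed to 4177 to 4896 in control and 3345 to 4501 in DHT, and those of oocytes, 8 as well, to 375 to 861 and 108 to 639, with none passing in either list. The 3 theca markers measured of 5 summed to 2457 to 2805 in control and 2210.3 to 2341 in DHT with none passing, and Cyp17a1 and Insl3, which define theca cells, were not analysed here. At an unadjusted p of at most 0.05 by limma, 1 endothelial, 2 surface epithelium, 0 oocyte and 1 theca marker passed, edgeR called 0 of these 4 lists' genes, and DESeq2 called 1 surface epithelium and 1 theca marker.

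Among the voltage-gated potassium channels, which open on depolarisation and repolarise the membrane, Kcnd2, Kcng2 and Kcnc2 were among those that rose. Of 22 members, 4 rose and none fell, 17 had a positive log2 fold change, and their median was 0.23. In this class 18.2% passed and 77.3% were positive, against 11.2% and 48.8% of all genes tested. Kcnd2 (ENSMUSG00000060882; chromosome 6 of GRCm38, 21215503 to 21729805) encodes Kv4.2, a pore subunit of fast-inactivating A-type currents. It held 1402, 1269 and 1228 normalised read counts in control replicates 1, 2 and 3 and 2059.8, 2174 and 2263 in DHT replicates 1, 2 and 3. The groups did not overlap, and the log2 fold change was 0.74 (SE 0.06, adjusted p = 0.000153), the lowest adjusted p of the 97 members. It passed in each of the 16 alternatives, with an adjusted p between 1.53e-21 and 0.0131.

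Kcng2 (ENSMUSG00000059852; chromosome 18 of GRCm38, 80294546 to 80364254) rose by the most among the 97 genes. It encodes Kv6.2, an electrically silent subunit that forms channels only together with Kv2 subunits. Its counts were low, 8.90, 10.2 and 10.2 in control replicates 1, 2 and 3 and 32.3, 40.4 and 31.6 in DHT replicates 1, 2 and 3. Every DHT library lay at more than 3 times the highest control library, and the log2 fold change was 1.72 (SE 0.25, adjusted p = 0.00261). Exons of Kcng2 overlap D330025C20Rik on the other strand over 9.10% of their bases. Kcng2 passed in each of the 15 alternatives in which it was tested. Kcnb2, a Kv2 gene, was low and did not pass (log2 fold change -0.72, adjusted p = 0.441). Other silent subunits had positive values that did not pass: 1.02 for Kcnf1 (Kv5.1, adjusted p = 0.0742) and 0.82 for Kcng3 (Kv6.3, adjusted p = 0.197). Kcns3 (Kv9.3) had -0.08 with an adjusted p of 0.925.

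Kcnc2 (chromosome 10, 112271121 to 112467024), which encodes Kv3.2 and was outside the rule for named genes, moved little. It held 966, 1073 and 1013 normalised read counts in control replicates 1, 2 and 3 and 1139, 1200.0 and 1167 in DHT replicates 1, 2 and 3, a log2 fold change of 0.20 (SE 0.05, adjusted p = 0.0465). The groups were separate, but the smallest DHT value was close to the largest control value. The call was lost under several alternatives, with adjusted p values of 0.0664 by DESeq2, 0.0573 after quantile normalisation, 0.108 without the intensity trend and 0.125 without control replicate 1, 0.072 without control replicate 3, 0.0789 without DHT replicate 1, 0.173 without DHT replicate 2 and 0.131 without DHT replicate 3. Kcnh2, the hERG channel of cardiac repolarisation, was among the more abundant voltage-gated genes, with 895, 933 and 1109.8 normalised read counts in control and 1183, 1099.6 and 1126 in DHT replicates, and did not pass (log2 fold change 0.22, adjusted p = 0.12, or 0.00786 without control replicate 3). The pore subunits Kcnd1 and Kcnd3 of the Kv4 family, to which Kcnd2 belongs, had log2 fold changes of 0.08 and 0.24 and did not pass. For these 2 genes the 95% intervals of the log2 fold change were -0.25 to 0.40 and -0.17 to 0.66, against 0.60 to 0.87 for Kcnd2.

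**Figure D2:**
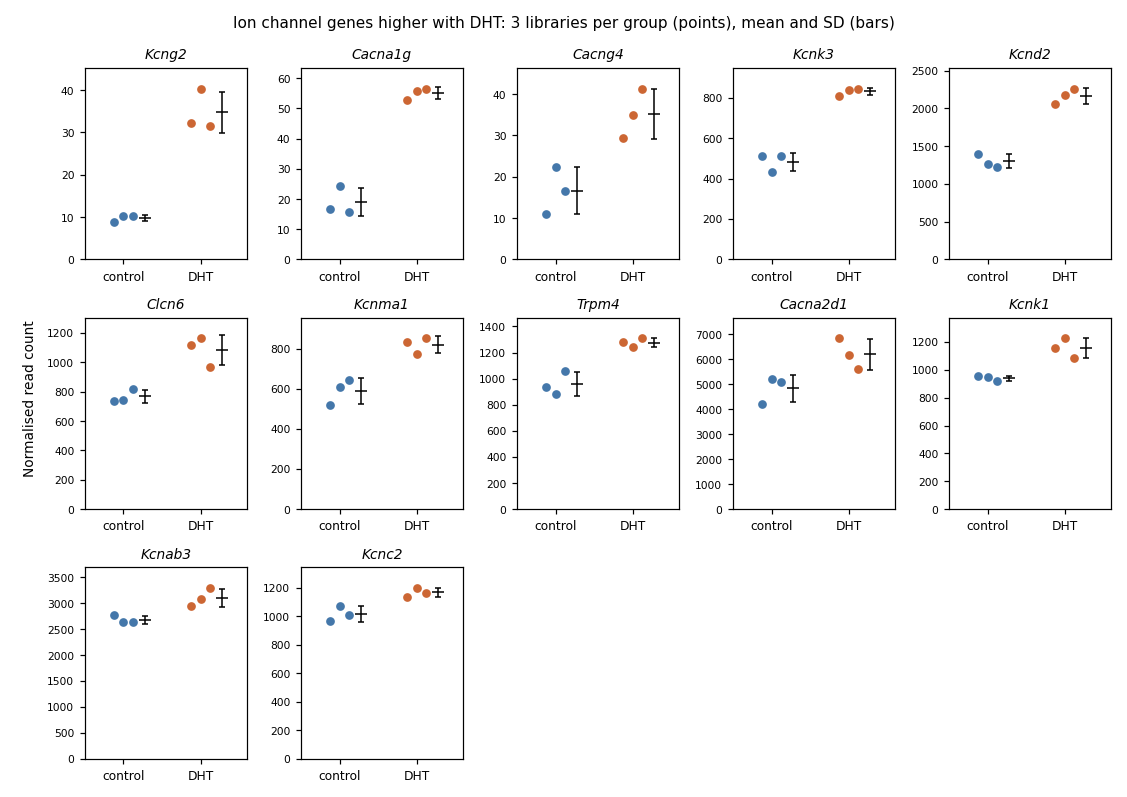
Normalised read counts of 12 of the 13 ion channel genes that were higher in DHT-treated GCs, 1 panel per gene with its own axis from 0; points are the 3 libraries of each group and bars the mean ± SD. In every panel all 3 DHT points lie above all 3 control points, with the widest gap relative to control in Kcng2 (8.90 to 10.2 against 31.6 to 40.4).

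Promoter sequences are shown for the voltage-gated gene with the lowest adjusted p and for the called members whose promoter window holds the hexamer TGTTCT or its reverse complement AGAACA, a half-site of the androgen response element, searched on both strands. The windows run from 250 bases before to 50 bases after a RefSeq transcription start on GRCm38.p6, written in the direction of transcription, with the hexamers in capitals. The window of Kcnd2 lies at chr6:21215096-21215395 (+ strand), that of Kcnc2 at chr10:112270871-112271170 (+), that of Kcnab1 at chr3:65108764-65109063 (+) and that of Clcn5 at chrX:7319309-7319608 (- strand).
Kcnd2: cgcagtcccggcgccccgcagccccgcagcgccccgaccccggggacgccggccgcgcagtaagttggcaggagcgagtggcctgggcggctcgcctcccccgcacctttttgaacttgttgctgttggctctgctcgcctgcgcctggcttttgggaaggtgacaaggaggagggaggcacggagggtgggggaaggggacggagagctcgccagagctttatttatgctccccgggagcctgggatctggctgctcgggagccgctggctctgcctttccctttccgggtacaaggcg
Kcnc2: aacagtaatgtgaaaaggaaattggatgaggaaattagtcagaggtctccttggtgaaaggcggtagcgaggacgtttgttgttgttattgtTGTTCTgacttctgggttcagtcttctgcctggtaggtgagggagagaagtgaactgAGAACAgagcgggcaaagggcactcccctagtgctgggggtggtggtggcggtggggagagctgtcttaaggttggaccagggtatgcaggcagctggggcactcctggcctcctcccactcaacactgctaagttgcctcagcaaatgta
Kcnab1: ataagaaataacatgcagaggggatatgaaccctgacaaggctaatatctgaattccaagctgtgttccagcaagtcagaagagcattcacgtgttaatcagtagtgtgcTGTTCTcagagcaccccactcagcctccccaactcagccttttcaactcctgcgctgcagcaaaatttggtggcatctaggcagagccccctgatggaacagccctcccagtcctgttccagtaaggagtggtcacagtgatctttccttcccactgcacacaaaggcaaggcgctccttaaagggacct
Clcn5: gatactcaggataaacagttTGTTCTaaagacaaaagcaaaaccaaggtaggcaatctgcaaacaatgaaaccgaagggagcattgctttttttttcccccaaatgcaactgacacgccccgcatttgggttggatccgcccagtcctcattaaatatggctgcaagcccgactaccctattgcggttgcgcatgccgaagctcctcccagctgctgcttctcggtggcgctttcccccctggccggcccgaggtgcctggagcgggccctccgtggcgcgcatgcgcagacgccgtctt
The GC-rich Kcnd2 window held no such hexamer. Kcnc2, Kcnab1 and Clcn5 have several listed starts, and the windows shown are ones that hold it. Of the 69 members with a promoter in the table, 19 (27.5%) held the hexamer in at least 1 window, against 21.3% of the 27025 genes of the table. Of the 17 members that passed the test, 9 had a promoter there and 3 held the hexamer. A match of these letters is a description of the window and not a binding site.

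Of the leak channels of the two-pore domain family, which hold the resting potential, 2 of 4 members rose. That is 50% of the class, against 11.2% of all genes tested that passed in either direction. Kcnk3 (ENSMUSG00000049265; chromosome 5 of GRCm38, 30588170 to 30625271) encodes TASK-1, an acid-sensitive leak channel. It held 509.6, 430.3 and 509.5 normalised read counts in control replicates 1, 2 and 3 and 811, 840.0 and 846 in DHT replicates 1, 2 and 3. The DHT libraries lay within a narrow band well above all controls, and the log2 fold change was 0.79 (SE 0.08, adjusted p = 0.000401). Kcnk1 (chromosome 8, 125995170 to 126030685), the TWIK-1 gene, rose from 954, 945 and 918 to 1153, 1226 and 1085 normalised read counts, a log2 fold change of 0.30 (SE 0.06, adjusted p = 0.0107). Its adjusted p was 0.0542 without DHT replicate 2 and 0.054 without the intensity trend. Kcnk5 (TASK-2) had a log2 fold change of 0.41 (SE 0.15, adjusted p = 0.135) and Kcnk2 (TREK-1, a mechanosensitive leak channel) one of -0.32 (SE 0.18, adjusted p = 0.299), and neither passed. Control replicate 1 of Kcnk2, at 809, lay above the other 2 controls at 659 and 472, and the groups overlapped. Without control replicate 3 the adjusted p of Kcnk2 was 0.0234.

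Among the 6 members grouped as calcium- or sodium-activated potassium channels, 1 rose (16.7% passed, against 11.2% of all genes tested). The group follows gene symbols and includes Kcnu1 (SLO3), which neither calcium nor sodium activates. Kcnma1 (ENSMUSG00000063142; chromosome 14 of GRCm38, 23289431 to 24014491) encodes the pore of the large-conductance BK channel, which opens on depolarisation and on calcium inside the cell. Its normalised read counts were 518, 607 and 642 in control replicates 1, 2 and 3 and 835, 773 and 851 in DHT replicates 1, 2 and 3. All DHT libraries exceeded all controls, and the log2 fold change was 0.48 (SE 0.08, adjusted p = 0.00739). Without the intensity trend the adjusted p was 0.0542. Its beta subunit gene Kcnmb4 did not pass, with a log2 fold change of -0.01 and a 95% interval of -0.25 to 0.23, and 20.9% of its exonic bases overlap the antisense member Kcnmb4os2. The sodium-activated channel gene Kcnt1 held 436, 342 and 488 in control and 342, 319.6 and 310.2 in DHT replicates, without overlap, but did not pass by limma (log2 fold change -0.37, adjusted p = 0.0984), although DESeq2 called it and its adjusted p was 0.0147 without control replicate 2. The small-conductance channel genes Kcnn1 and Kcnn2, which respond to calcium alone, had 0.22 and 0.09 and did not pass.

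With all 6 libraries and no replicate block, no inward rectifier passed by limma, edgeR or DESeq2 (2 at an unadjusted p of at most 0.05 by limma). These channels carry potassium best at negative potentials, and 4 of their genes were measured. Kcnj2 (Kir2.1) had the most negative log2 fold change of the potassium genes, -1.16 (SE 0.39, adjusted p = 0.0959), from 58.4, 37.2 and 25.0 normalised read counts in control to 26.4, 15.3 and 10.9 in DHT replicates. Control replicate 3 and DHT replicate 1 overlapped for Kcnj2, and without control replicate 3 its adjusted p was 0.0417. Kcnj4 (Kir2.3), the highest of the 4 per kilobase of exon, held 54.4, 63.2 and 63.9 in control and 75.3, 77.5 and 97.9 in DHT replicates, without overlap, and missed the threshold (log2 fold change 0.45, adjusted p = 0.125).

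Accessory genes of potassium channels were split. The 10 members are 8 protein-coding genes and the antisense transcripts Kcnab3os and Kcnmb4os2, which encode no subunit. Of the 10, 1 rose and 1 fell (20% passed, against 11.2% of all genes tested). Both called genes encode cytoplasmic beta subunits of Kv channels. Kcnab3 (chromosome 11, 69326258 to 69333042) had 2762, 2627 and 2641 normalised read counts in control replicates 1, 2 and 3 and 2944, 3082 and 3292 in DHT replicates 1, 2 and 3, a small rise with a log2 fold change of 0.21 (SE 0.05, adjusted p = 0.0234). Kcnab1 (chromosome 3, 65109384 to 65378223) fell from 533, 467 and 535 to 375, 436 and 419, a log2 fold change of -0.32 (SE 0.09, adjusted p = 0.0462). In both genes the groups did not overlap. Neither call was stable when libraries were left out: the adjusted p of Kcnab3 was 0.0746 without control replicate 2, 0.0801 without DHT replicate 2 and 0.0843 without DHT replicate 3, and that of Kcnab1 was 0.123 without control replicate 1, 0.0911 without control replicate 3, 0.134 without DHT replicate 1, 0.0769 without DHT replicate 2 and 0.113 without DHT replicate 3. Without the intensity trend the values were 0.102 for Kcnab3 and 0.106 for Kcnab1. Exons of Kcnab3 overlap its antisense transcript Kcnab3os over 5.13% of their bases, and Kcnab3os itself did not pass (log2 fold change 0.10, adjusted p = 0.789). Kcnab2 had 0.26 and did not pass. Of the single-span Kcne subunits, Kcne2 held 24.7, 43.7 and 50.0 in control and 86.1, 54.5 and 84.9 in DHT replicates, and Kcne3 53.4, 49.3 and 47.2 and 41.1, 30.5 and 27.2. These 2 genes had log2 fold changes of opposite sign, 0.94 and -0.61, without overlap, and missed the threshold with adjusted p values of 0.0742 and 0.107, although DESeq2 called Kcne2 and its adjusted p was 0.0379 without control replicate 3. The calcium-binding Kv4 partners Kcnip3 and Kcnip4 had -0.33 and -0.42 and did not pass, while the Kv4.2 pore gene Kcnd2 rose. Without control replicate 1 the adjusted p of Kcnip3 was 0.0241.

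No sodium channel gene passed, higher or lower, among 7 measured. Voltage-gated sodium channels carry the fast upstroke of action potentials in excitable cells. The neuronal pore genes Scn1a, Scn2a and Scn3a had negative values (-0.31, -0.37 and -0.83) and Scn8a a positive one (0.59), with adjusted p values from 0.212 to 0.542. Without the intensity trend the adjusted p of Scn8a was 0.0435. At an unadjusted p of at most 0.05 by limma, 2 of the 7 passed, and by edgeR and by DESeq2 0 passed after adjustment (DESeq2 gave no adjusted p for 3).

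Of 17 calcium channel genes, 3 rose and none fell (17.6% passed, against 11.2% of all genes tested). The pore gene Cacna1g (ENSMUSG00000020866; chromosome 11 of GRCm38, 94408391 to 94474198) encodes Cav3.1, a T-type channel that opens at negative potentials. It held 16.8, 24.2 and 15.7 normalised read counts in control replicates 1, 2 and 3 and 52.8, 55.6 and 56.6 in DHT replicates 1, 2 and 3. The DHT libraries lay close together, each at more than 2 times the highest control. The log2 fold change was 1.52 (SE 0.23, adjusted p = 0.00315), and the call held in all 15 alternatives that tested the gene. The other T-type gene measured, Cacna1h (Cav3.2), was far higher per kilobase of exon (103 against 1.87 normalised read counts per kilobase in control) and did not pass. Its log2 fold change was -0.11, with a 95% interval of -0.29 to 0.07, which lies wholly below the interval of Cacna1g, 1.01 to 2.03.

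L-type, P/Q-type and other high-voltage calcium pore genes did not pass. Cacna1a, the P/Q-type gene and the highest calcium pore gene per kilobase of exon, held 2556, 2489 and 1441 in control and 2273, 2601 and 2355 in DHT replicates, and its control replicate 3 was far below the other 5 libraries. The log2 fold change of Cacna1a was 0.20 with all libraries and -0.068 without control replicate 3. Cacna1c and Cacna1d, the L-type genes, had 0.18 (SE 0.14, adjusted p = 0.445) and -0.33 (SE 0.21, adjusted p = 0.363). Their signs differed, but both intervals included 0.

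Accessory calcium channel genes gave 2 of the 3 calls. Cacna2d1 (ENSMUSG00000040118; chromosome 5 of GRCm38, 15934691 to 16374511) encodes alpha2delta-1, which carries pore subunits to the cell surface. It was abundant, with 4231, 5209 and 5091 normalised read counts in control replicates 1, 2 and 3 and 6849, 6171 and 5598 in DHT replicates 1, 2 and 3. The groups did not overlap, and the log2 fold change was 0.36 (SE 0.09, adjusted p = 0.0352). The adjusted p was 0.0674 without control replicate 1, 0.103 without DHT replicate 1 and 0.103 without DHT replicate 2, and 0.148 without the intensity trend. Cacng4 (chromosome 11, 107732357 to 107794557) belongs to the gamma subunit family and is best known as an auxiliary protein of AMPA receptors. It was low, at 10.9, 22.3 and 16.7 in control and 29.4, 34.9 and 41.4 in DHT replicates, and its log2 fold change of 1.08 (SE 0.30, adjusted p = 0.0497) was at the edge of the threshold. The adjusted p of Cacng4 was 0.0511 with a pseudocount of 0.5, 0.0767 by DESeq2, 0.062 after quantile normalisation, 0.0934 without the intensity trend and 0.12 without control replicate 1, 0.0701 without control replicate 3, 0.075 without DHT replicate 1, 0.139 without DHT replicate 2 and 0.176 without DHT replicate 3. The beta subunit gene Cacnb3 was the highest calcium channel gene per kilobase of exon and held 3052, 3241 and 3151 normalised read counts in control and 3358, 3538 and 3481 in DHT replicates. Although its groups did not overlap, the difference was small, 0.14 (SE 0.04, adjusted p = 0.062), and did not pass.

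The CLC family, of chloride channels at the cell surface and chloride-proton exchangers of endosomes and lysosomes, had 1 rise and 1 fall among 7 members. In this family 28.6% passed, against 11.2% of all genes tested. Clcn6 (ENSMUSG00000029016; chromosome 4 of GRCm38, 148004259 to 148038821), a late endosomal exchanger, held 739, 745 and 822 normalised read counts in control replicates 1, 2 and 3 and 1121, 1164 and 971 in DHT replicates 1, 2 and 3. All DHT libraries were above all controls, with a log2 fold change of 0.49 (SE 0.08, adjusted p = 0.00407), and the call held in each of the 16 alternatives. Clcn5 (chromosome X, 7153810 to 7319358), an exchanger of early endosomes known from Dent disease of the kidney, fell from 5293, 5902 and 6296 to 5209, 4600.2 and 4535 normalised read counts. Its highest DHT library lay just under its lowest control, and the log2 fold change was -0.29 (SE 0.07, adjusted p = 0.0353). The adjusted p of Clcn5 was 0.101 without control replicate 2, 0.0652 without control replicate 3, 0.129 without DHT replicate 2 and 0.138 without DHT replicate 3, and 0.145 without the intensity trend. Clcn3 and Clcn7, both endosomal or lysosomal exchangers, did not pass, with log2 fold changes of -0.00305 and -0.00603 and 95% intervals of -0.10 to 0.09 and -0.12 to 0.11. Clcn4, the highest of the family per kilobase of exon, had 0.11 (SE 0.04, adjusted p = 0.0889), and Clcn2, a channel of the cell surface, 0.10 (SE 0.06, adjusted p = 0.368).

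Of the HCN channels, which open on hyperpolarisation and carry the pacemaker current, Hcn2 was the highest per kilobase of exon. Hcn2 held 175, 197 and 232 normalised read counts in control and 223, 236 and 242 in DHT replicates, and Hcn3 134, 111 and 145 and 121, 154 and 119.7. The groups overlapped in both genes and neither passed, with 95% intervals of the log2 fold change of -0.04 to 0.49 and -0.33 to 0.36.

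**Figure D3:**
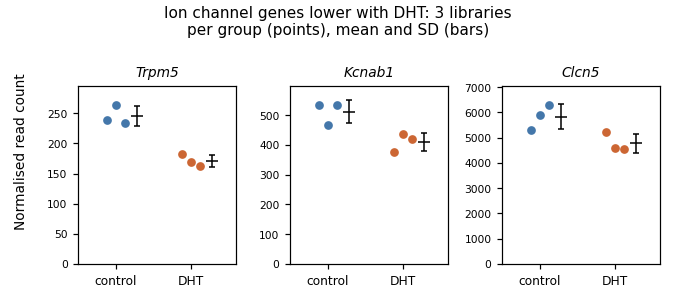
Normalised read counts of 3 of the 4 ion channel genes that were lower in DHT-treated GCs, 1 panel per gene with its own axis from 0; points are the 3 libraries of each group and bars the mean ± SD. Every DHT point lies below every control point, and in Clcn5 the highest DHT point (5209) lies just under the lowest control point (5293).

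TRP channels pass several cations and respond to lipids, temperature, calcium or stretch. Of 12 members, 1 rose and 1 fell (16.7% passed, against 11.2% of all genes tested). Both called genes encode calcium-activated channels, TRPM4 and TRPM5, close relatives that pass monovalent cations. Trpm4 (ENSMUSG00000038260; chromosome 7 of GRCm38, 45302632 to 45333780) held 934, 883 and 1061 normalised read counts in control replicates 1, 2 and 3 and 1279.9, 1240.3 and 1309 in DHT replicates 1, 2 and 3. Its log2 fold change was 0.42 (SE 0.07, adjusted p = 0.00555), without overlap and past the threshold in each of the 16 alternatives. Trpm5 (ENSMUSG00000009246; chromosome 7 of GRCm38, 143069153 to 143094642), best known from taste cells, moved the other way, from 239, 264 and 233 to 182, 169 and 162 normalised read counts. The log2 fold change of Trpm5 was -0.52 (SE 0.10, adjusted p = 0.0111), with an adjusted p of 0.0534 without DHT replicate 3. Exons of Trpm5 overlap Tssc4 on the other strand over 3.44% of their bases, and Tssc4 also fell, from 1552 to 1246 normalised read counts on average (log2 fold change -0.32, adjusted p = 0.00717), so reads of one gene cannot be told from those of the other in the shared bases. Per kilobase of exon, Trpm4 held 88.6 normalised read counts in control and 118 in DHT, and Trpm5 38.4 and 26.7. Trpm7, a magnesium-permeable channel fused to a kinase, was the most abundant TRP channel per kilobase. Its normalised read counts were 6150.3, 5879 and 6173 in control and 5867, 5777 and 5699 in DHT replicates, without overlap, and the difference was small and did not pass (-0.07, adjusted p = 0.268). Trpc4ap matches the name rule but encodes a TRPC4-associated protein and not a channel, and its log2 fold change was 0.05 (adjusted p = 0.405). The receptor-operated channels Trpc1 and Trpc6 had log2 fold changes of 0.11 and 0.30, and the TRPV channels Trpv2, Trpv4 and Trpv6 had 0.06, 0.21 and -0.24. None of these 5 passed.

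The 2 mechanosensitive Piezo channels and the 3 acid-sensing channels did not pass by limma or edgeR, with 2 and 1 of them at an unadjusted p of at most 0.05, and DESeq2 called 1 of them, Asic4. Piezo2 was by count the most abundant of the 97 genes and held 14.4% to 18.3% of all member counts in control and 18.4% to 21.2% in DHT libraries. It had 10784, 14398 and 14618 normalised read counts in control and 18598, 17605 and 15404 in DHT replicates, without overlap. The log2 fold change of Piezo2 was 0.38 (SE 0.11, adjusted p = 0.064), and its adjusted p was 0.0317 without control replicate 3. Piezo1 held 5662, 6318 and 6026 in control and 5485, 5701 and 5464 in DHT replicates, with overlap, and a log2 fold change of -0.11 (SE 0.05, adjusted p = 0.166). Of Piezo1's exonic bases, 24.6% overlap Ctu2 on the other strand. Asic4 had a log2 fold change of -1.08 (SE 0.47, adjusted p = 0.188), from 75.2, 44.6 and 17.6 to 13.7, 22.9 and 18.5 normalised read counts, with controls that spread over a wider range than the difference in medians. Without control replicate 3 the adjusted p of Asic4 was 0.0116. Asic1, the highest acid-sensing gene per kilobase of exon, had -0.04 (SE 0.18, adjusted p = 0.931).

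Levels per kilobase of exon gave the order of the members. Kcnab3 was highest by its mean over both groups, with 934 normalised read counts per kilobase in control and 1084 in DHT, above 88.0% of all genes tested by its mean. By the mean over both groups, Piezo2 (888), Cacnb3 (824) and Trpc4ap (745) followed, and the library values of Piezo2 overlapped those of Kcnab3, Cacnb3 and Trpc4ap. Piezo1, Trpm7, Clcn4, Kcnk1, Clcn5, Clcn7 and Cacna2d1 formed the next tier, between 445 and 581 over both groups. Kcnd2 was the highest voltage-gated potassium gene, at 252 in control and 420.3 in DHT, followed by Kcnh2 at 202 and 235. The higher members past both thresholds were low on this scale: 3.27 normalised read counts per kilobase in control for Kcng2, 1.87 for Cacna1g and 4.65 for Cacng4. The median over the 97 members was 15.2, against 164 over all genes tested.

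**Figure D4:**
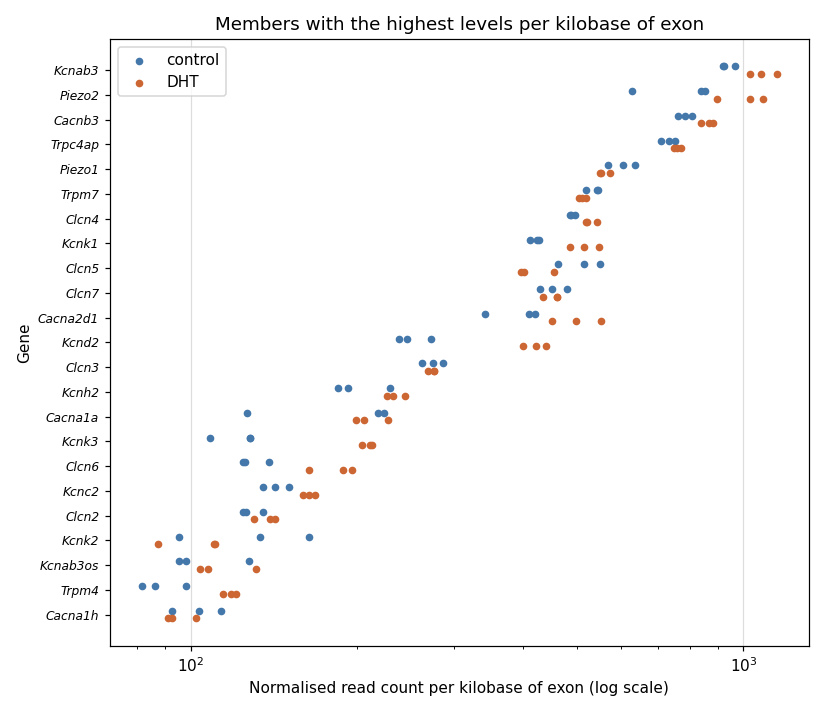
Normalised read counts per kilobase of exon, on a log scale, for 23 of the 24 ion channel genes with the highest mean level; each point is 1 library, blue for control and orange for DHT. Kcnab3 leads by its mean, with points of Piezo2 among its own, and the orange points of Kcnd2 and Kcnk3 are clear of the blue ones while those of Clcn3 and Clcn7 lie among them.

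Genes that work with these channels were counted in the same fit, where 6.52% of all genes tested were higher and 4.66% lower. Of 32 genes of calcium stores and calcium clearance, 28 were measured, 2 rose and 5 fell, with a median log2 fold change of -0.03. Ryr2, a release channel of the endoplasmic reticulum, fell from 298, 279.7 and 283 to 159.5, 172 and 173 normalised read counts, a log2 fold change of -0.77 (SE 0.09, adjusted p = 0.000985). Mcub, the dominant-negative subunit of the mitochondrial calcium uniporter, fell from 483, 493 and 475 to 342, 345 and 361 (-0.47, adjusted p = 0.00254). The other 3 that fell, named after their values were seen, were Itpr1 (-0.32), the IP3 receptor, Stim1 (-0.30), the sensor of store content, and the plasma membrane calcium pump gene Atp2b1 (-0.35). The 2 that rose, likewise, were Atp2b4 (0.47) and Slc8b1 (0.35), but this count was 0 without control replicate 2, without DHT replicate 2, without DHT replicate 3 and without the intensity trend, and 1 without any other library. Of 62 genes of other channel families, 48 were measured, 7 rose and none fell by limma, edgeR or DESeq2 (2 lower at an unadjusted p of at most 0.05), with a median log2 fold change of 0.03. Tmem63a, a mechanosensitive channel, rose from 687, 733 and 685 to 904, 967 and 950.1 normalised read counts, a log2 fold change of 0.42 (SE 0.06, adjusted p = 0.00174). Cnga1, a cyclic nucleotide-gated channel, rose from 86.1, 95.7 and 79.7 to 138, 139 and 175, a log2 fold change of 0.78 (SE 0.15, adjusted p = 0.00969). The count of 7 dropped to 2 without DHT replicate 2 and to 3 without DHT replicate 3. Of 14 genes of the sodium-potassium pump, which builds the gradients that the channels use, 8 were measured, 1 rose and 1 fell. The beta1 subunit gene Atp1b1 fell from 2785, 2539.7 and 2849.6 to 2198, 2152 and 2002, a log2 fold change of -0.36 (SE 0.06, adjusted p = 0.00361). The median log2 fold change of the 8 was 0.06.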

How the data were processed

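RNA-seq was performed on GCs of control and DHT-treated cultures, 3 libraries per group. The authors trimmed reads with Trimmomatic 0.36, mapped them to GRCm38 with STAR 2.5.2b, counted unique exonic reads with featureCounts of Subread 1.5.2 and divided each count by a DESeq2 size factor. The deposited values are this signal, called normalised read counts here. The strand setting and annotation release are not given in the sources used here, and the library kit does not mark strand, so reads of overlapping genes cannot be told apart. Every value of the 16300 genes was a whole multiple of 1 step per library within 0.001 of a read, which gave back whole read counts for 100% of values. The fold changes and p-values the authors deposited, and a second table of selected genes, were not used.

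Log2(normalised read count + 1) was tested with limma 3.58.1 in R 4.3.3, its moderated test fitted with a trend of the variance on intensity. The 16292 genes averaging 10 or more normalised read counts entered, and Benjamini-Hochberg adjustment covered all of them. The pseudocount of 1 understates fold changes of low genes. A gene passed at an adjusted p of at most 0.05. Alternatives were edgeR 4.0.16 (quasi-likelihood) and DESeq2 1.42.0 on the recovered reads, which called 17 and 18 members, other pseudocounts, filters and scalings, no intensity trend, the replicate block and each library left out. The code was tested on simulated data.

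Single values of 3 against 3 libraries cannot go below an exact permutation p of 0.1 and were not tested alone. P-values measure the spread between pools of 5 mice. The labels give no batch. Exon lengths, overlaps and positions came from the GENCODE annotation of GRCm38, and promoters from RefSeq. Named genes were members past both thresholds, the 2 lowest adjusted p per class and direction, the highest level per class and the 2 lowest adjusted p per outside list; any other gene named was chosen after its values were seen. The members and lists were chosen with earlier results of these data known. Some genes counted in the totals are not reported here.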

Additional observations from a re-analysis of the deposited data

How the results depend on the processing

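Over 16 alternatives, the 27 members followed gave 376 values with the same direction and side of the threshold, 47 that no longer passed, 3 that newly passed and 3 that reversed. The reversals were Asic1 (log2 fold change 0.13 without control replicate 1 and 0.04 without DHT replicate 3, range -0.12 to 0.13 with 1 library left out) and Cacna1a (-0.068 without control replicate 3, range -0.068 to 0.34), neither past the threshold. Kcnk3, Kcnd2, Clcn6 and Trpm4 passed in all 16, and Kcng2 and Cacna1g in the 15 that tested them. The count of members higher was 8 without the intensity trend and 8 to 14 with 1 library left out, and of members lower 1 and 1 to 5. With the fold threshold, a mean of at least 50 left 0 members higher, since those members are low. The number lower with the fold threshold was 0 without the intensity trend, 2 with the replicate block, 2 by DESeq2 and 1 to 3 with 1 library left out. Genes of calcium stores that rose numbered 0 without the intensity trend, 0 with the block and 0 to 1 with 1 library left out. Other channel families had 3 higher without the intensity trend, 4 with the block and 2 to 6 with 1 library left out. DESeq2 called 2 pump genes lower. Calls over all genes were 804 without the intensity trend and 937 to 2103 with 1 library left out, the highest without control replicate 3. The cause of these changes was not tested.

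The labels do not say whether a replicate number shared by the groups marks shared animals or a shared day, and same-numbered libraries correlated in their deviations by 0.01, 0.07 and -0.24, with control replicate 1 closest to DHT replicate 3 (0.23). With the replicate block, 9 members were higher and 3 lower, and 990 genes passed in all. The block ended the calls of Cacng4 (adjusted p = 0.0758), Kcnab3 (0.0843), Kcnc2 (0.0986), Cacna2d1 (0.10045), Clcn5 (0.112) and Kcnab1 (0.128), and Kcnj2 passed with it (0.0404). Depth limits the low members: 42 of 97 had a mean under 50 normalised read counts, and for these a miss of the threshold does not show equal levels.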
